A study of Mus musculus with 5 samples.

Results

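The cells described here are the Gip-high cells of a droplet library of mouse small intestine, that is, the cells in which the messenger RNA of glucose-dependent insulinotropic polypeptide (GIP) took at least 500 of every 10000 unique molecular identifiers (UMIs, each standing for 1 captured mRNA molecule). A barcode counted as a cell when over 1000 genes were detected in it and mitochondrial genes took less than 10% of its UMIs. Of these, cells with Gip at 500 or more were kept where Ghrl was under 1500, Sst was under 500 and the goblet genes Zg16, Fcgbp, Clca1 and Spink4 together were under 500, all per 10000 UMIs of the cell. The rule left 154 Gip-high cells of 9451 (1.63%, exact binomial 95% interval 1.38 to 1.91%). They were compared with 2934 comparison cells, which had Gip under 500, met the same goblet limit, and had Chgb at 20 or more or Cck at 500 or more, so that they carried a granule protein or a hormone of enteroendocrine cells (EECs). Both sets were thus chosen by the measured levels of Gip, Ghrl, Sst, Chgb, Cck and the goblet genes. Every ratio between the sets is a description, without a test.

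EECs are hormone-secreting cells scattered through the gut epithelium, and their kinds are told apart mainly by the hormones they make. K cells, found mainly in the proximal small intestine, secrete GIP when fat or sugar is absorbed, and GIP raises insulin release from pancreatic beta cells and promotes fat storage. GIP is cut from its precursor by the protease Pcsk1, is stored in granules with chromogranins, and its gene is known to be controlled by GATA factors and by homeodomain factors such as Pdx1, Isl1 and Pax6.

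The droplet library pooled tdTomato+ cells sorted from the small intestine of 4 untreated C57Bl/6J mice aged 6 weeks, which carried Neurog3-Cre; R26-LSL-tdTomato, so that cells descended from Neurog3+ endocrine progenitors stayed labeled. As there is 1 library, intervals on levels and shares cover counting error only and not the spread between animals. The bulk data were 12 libraries of sorted cells from 6 C57Bl/6J mice aged 6 to 8 weeks with Cck-Cre; R26-LSL-tdTomato, each mouse giving 1 library of CCK+ (tdTomato+) and 1 of CCK- (tdTomato-) epithelial cells. 3 of these mice were fasted overnight and 3 were fasted and then refed Ensure, a liquid meal. The Cck-Cre label marks any cell whose lineage ever used the Cck gene, so it is not a sort for Gip, and the K cells in it are those with such a history.

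The Gip gene (ENSMUSG00000014351) lies on the + strand of chromosome 11 at chr11:96024545-96030831 in GRCm38. The 250 bases before its start, chr11:96024295-96024544, + strand, are shown because they hold the letters GATAA, the core that GATA factors bind, and TAAT, the core that homeodomain factors bind, which are printed in capitals on whichever strand they were found (TTATC and ATTA on the reverse):
Gip promoter: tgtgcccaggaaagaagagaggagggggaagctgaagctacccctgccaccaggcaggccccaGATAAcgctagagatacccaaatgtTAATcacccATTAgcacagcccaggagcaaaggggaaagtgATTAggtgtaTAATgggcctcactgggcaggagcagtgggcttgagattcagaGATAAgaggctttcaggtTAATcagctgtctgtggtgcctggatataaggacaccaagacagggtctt
The stretch holds 2 GATAA and 5 TAAT cores, which do not overlap each other. GATAA or its reverse was found in 22.6% of the 32851 promoter windows of RefSeq GRCm38.p6, and TAAT or its reverse in 54.9%. A match to such short letters is a description of the sequence and not a binding site.

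Within the Gip-high cells, Gip ranged from 500.2 to 5958 UMIs per 10000, with a median of 2942 and quartiles of 1306 and 4353. It took 28.8% of all their UMIs, against 0.136% in the comparison cells, where the median cell had 6.55 and the highest had 485. Near the limit, 11 Gip-high cells lay between 500 and 600 and 8 cells that met the other limits lay between 400 and 500. The goblet limit removed 41 cells with Gip at 500 or more, the Sst limit removed 2, and the Ghrl limit removed 0. The highest Ghrl in a Gip-high cell was 278 and the highest Sst was 6.99.

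The median Gip-high cell had 6126 UMIs, and the range was 2295 to 17436. The comparison cells had a median of 3757 UMIs and fell into 961 Cck-high cells (Cck at 500 or more, median 6178 UMIs), 43 Ghrl-high cells, 41 Sst-high cells and 1889 others (median 3006 UMIs), in which the serotonin gene Tph1 was highest, at 39.8 per 10000. The median depth of the Cck-high cells was thus close to that of the Gip-high cells, though their range was wider (2107 to 29337), and that of the others was lower. A UMI limit computed by the cell-calling rule of Cell Ranger 2 (3892 UMIs) was not part of the cell rule here. It was reached by 88.3% of Gip-high cells, 89.6% of Cck-high cells and 24.6% of the others. Of all comparison cells 47.6% reached it, and of the 9451 cells 75.4%. Free RNA, the RNA that floats in the suspension and enters every droplet, made up an estimated 10.5% of the UMIs of the median Gip-high cell and 12.1% of the median comparison cell. Because Gip took so large a share of the UMIs, the median gene was 0.761 of its level in the comparison cells (log2 -0.39), and 1.07 (log2 0.09) when the UMIs of Gip were left out of the scale.

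**Figure D1:**
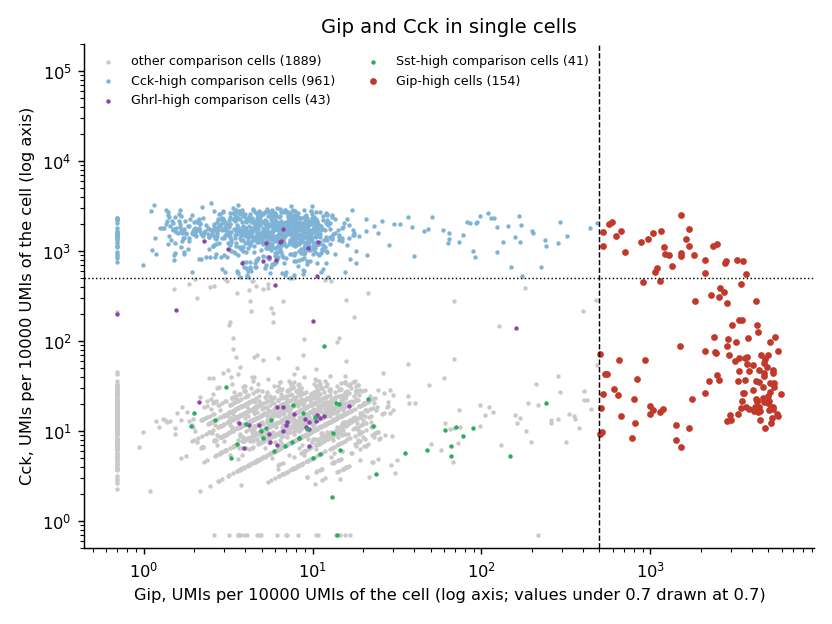
Each point is 1 cell, placed by its Gip (x axis) and Cck (y axis) level in UMIs per 10000 UMIs of the cell, both on log axes. The dashed line marks Gip 500 and the dotted line Cck 500. The 154 Gip-high cells split into a larger set of low Cck and 33 cells at or above Cck 500, and the comparison cells lie mostly below Gip 100, with 58 of them at 100 or more.

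Of 1259 genes with at least 1 UMI per 10000 in either set and a UMI in at least 10% of its cells, 28 (2.22%) were at least 2-fold higher in the Gip-high cells and 135 (10.7%) were at least 2-fold lower. With the UMIs of Gip left out of the scale, 1494 genes could be compared, of which 87 were higher and 51 were lower. The balance of higher and lower genes thus depended on the scale. The 20 genes of highest ratio, called the leading genes, were all still at least 2-fold higher on that scale. They were also at least 2-fold higher in 19 cases against the Cck-high cells, 18 against the other cells, 16 against the Ghrl-high cells and 15 against the Sst-high cells. 12 leading genes were at least 2-fold above all 4 kinds of comparison cell, namely Gip, Nnat, Cnr1, Fabp5, Sphkap, Cd44, Pkib, Rfx6, Rbp4, Fam213a, Hjurp and Pax6.

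Gip was at 2875 UMIs per 10000 (Poisson 95% interval 2865 to 2886) in the Gip-high cells and at 13.6 (13.4 to 13.8) in the comparison cells, a ratio of 212. Free RNA alone would have placed 7.10 in a Gip-high cell. Among the comparison cells, Gip was highest in the Sst-high cells, at 28.0.

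Fabp5, a carrier of fatty acids inside the cell (ENSMUSG00000027533, chr3:10012548-10016607), was the most abundant leading gene after Gip. Its level was 51.7 (50.4 to 53.2) against 1.98 (1.90 to 2.05), a ratio of 26.2 (25 to 27.4). It had a UMI in 98.7% of Gip-high cells, 62.9% of Cck-high cells and 27.6% of the other cells. After every cell was thinned at random to 2000 UMIs, these shares were 92.9%, 35.3% and 18.9%. The next highest level was 7.63 per 10000, in the Sst-high cells.

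Rbp4, which carries retinol (vitamin A) in the blood (ENSMUSG00000024990, chr19:38116629-38125281), was at 42.0 (40.7 to 43.3) against 9.12 (8.96 to 9.28), a ratio of 4.60 (4.45 to 4.77). This ratio mixed unlike cells, since Rbp4 was at 18.2 in Cck-high, 20.6 in Ghrl-high and 18.5 in Sst-high cells but at 0.730 in the others. Rbp4 had a UMI in 96.8% of Gip-high and 96.5% of Cck-high cells (91.6% and 85.4% after thinning), so these 2 kinds of cell differed in the level of Rbp4 more than in how many cells held it.

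Cnr1, the cannabinoid receptor CB1 (ENSMUSG00000044288, chr4:33924593-33948831), was rare but set the Gip-high cells apart. Its level was 1.41 (1.19 to 1.66) against 0.0298 (0.0214 to 0.0404), a ratio of 47.3 (33.2 to 68.7). It had a UMI in 53.9% of Gip-high cells, 2.08% of Cck-high cells and 0.953% of the other cells. Thinned to 2000 UMIs, the shares were 19.5%, 0.520% and 0.6%.

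The 3 markers were also counted together in single cells. All 3 of Fabp5, Rbp4 and Cnr1 had a UMI in 82 of 154 Gip-high cells (53.2%, exact interval 45.0 to 61.3%), in 13 of 961 Cck-high cells (1.35%, 0.722 to 2.30%) and in 16 of 2934 comparison cells (0.545%). After thinning, the shares were 18.2% of Gip-high, 0.312% of Cck-high and 0.209% of comparison cells. Most thinned Gip-high cells had Fabp5 (92.9%) and Rbp4 (91.6%), so the share with all 3 was close to that of Cnr1 alone (19.5%). The count of all 3 therefore adds little to the shares of the single genes. At least 2 of the 3 had a UMI in 148 Gip-high cells (96.1%), but also in 594 Cck-high cells (61.8%) and in 737 comparison cells (25.1%). All 4 markers listed for K cells were thus higher in the Gip-high cells. Gip was part of the rule, and the list was chosen with earlier results of these data known. Fabp5, Rbp4 and Cnr1 are therefore a description and no independent support for the label. The 41 Gip-rich cells removed for their goblet genes held all 3 in 17 cells (41.5%).

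Nnat, encoding neuronatin, a small membrane protein of endocrine and nerve cells, followed Gip in ratio at 56.0 (39.1 to 82.1). Its level was 1.55 against 0.0276, with a UMI in 19.5% of Gip-high cells and up to 50.2 per 10000 in 1 of them. Rgs4, which shortens G protein signals, was at 2.13 against 0.124, yet at 5.83 in the Sst-high cells. The noncoding RNA Meg3 had the same pattern, at 1.77 in the Gip-high cells, 0.169 in the comparison cells and 3.61 in the Sst-high cells. Phlda1 was at 3.39 against 0.617, and at 4.20 in the Sst-high cells. Rgs4, Meg3 and Phlda1 thus marked the Gip-high and the Sst-high cells alike.

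2 leading genes act on protein kinase A, the enzyme that cyclic AMP switches on. Sphkap, an anchor of the kinase, was at 1.68 against 0.150 (ratio 11.2, 9.10 to 13.8). Pkib, an inhibitor of the kinase, was at 2.63 against 0.385 (ratio 6.82, 5.87 to 7.92), with 0.662 in the other comparison cells and 0.0792 in the Cck-high cells. The hyaluronan receptor Cd44 was at 1.26 against 0.176 (ratio 7.14). Secretagogin (Scgn), a calcium-binding protein of endocrine cells, was at 2.82 against 0.836, with 2.98 in the Ghrl-high cells and 1.6 in the Cck-high cells.

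The remaining leading genes had lower ratios. The peroxiredoxin-like gene Fam213a had a ratio of 4.27, Hjurp, a chaperone of centromere histone, 3.23, the glutathione transferase Gsto1 2.43, and Fxyd6, a regulator of the sodium pump, 2.36. Gsto1 was higher in the Ghrl-high (6.11) and Sst-high cells (6.78) than in the Gip-high cells (4.93). Defa21, a defensin of Paneth cells, reached a ratio of 2.43, but 1 cell held 78.1% of its UMIs. That cell had 17436 UMIs, the most of any Gip-high cell, Gip at 804, the Paneth genes Defa24 at 2406 and Lyz1 at 326, and Fabp5 at 2.87. Without it, the ratio of Defa21 was 0.542.

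**Figure D2:**
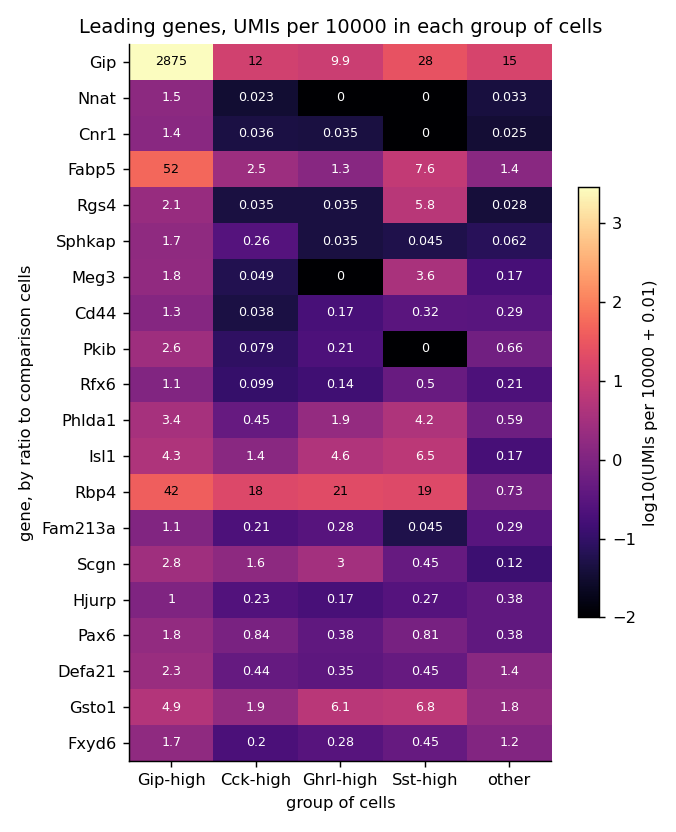
Rows are the 20 leading genes and columns are the Gip-high cells and the 4 kinds of comparison cell. Each box gives the level in UMIs per 10000, colored on a log10 scale after 0.01 was added. Fabp5 and Cnr1 stand out in the Gip-high column, while Rgs4, Meg3, Phlda1, Isl1 and Gsto1 are as high or higher in the Sst-high column.

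Among 32 transcription factors of EECs, 13 had enough UMIs to be compared. Of these, 3 were at least 2-fold higher in the Gip-high cells and 4 were at least 2-fold lower, against 2.22% and 10.7% of all compared genes. Their median ratio was 0.650, against 0.761 over all genes. The 3 higher factors are homeodomain or winged-helix regulators shared with the pancreatic islet. Isl1 was at 4.27 against 0.897, and as high in the Ghrl-high (4.61) and Sst-high cells (6.51). Pax6 was at 1.83 against 0.589, and Rfx6 at 1.07 against 0.163, and both were over 2-fold above each kind of comparison cell. The lower ones were Neurod1, which drives endocrine differentiation (4.38 against 10.4), Foxa1, Onecut3 and Id1. With the UMIs of Gip left out of the scale, the 3 higher factors stayed past 2-fold and 0 factors were past 2-fold lower, the ratio of Neurod1 being 0.591. Pdx1, at 0.345 (0.240 to 0.479) against 0.147, was under the level limit and was 1.36 in the Sst-high cells.

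Of 20 peptide hormone genes, 10 could be compared, Gip alone was higher, and 8 were at least 2-fold lower (6 with the UMIs of Gip left out, when Cck and Pyy were within 2-fold). Over all compared genes, 2.22% were higher and 10.7% were lower. Cck was also part of the rule that chose the comparison cells. Sst, the inhibitory hormone of D cells, was 64.3-fold lower (0.729 against 46.9), and since Sst and Ghrl were limited by the rule, their low levels follow in part from it. The comparison cells behind the ratio of Sst included the 41 Sst-high cells, and against cells with Cck of 500 or more its log2 value was -1.09 rather than -6.01. Neurotensin (Nts) was 12.1-fold lower (3.0 against 36.2), ghrelin (Ghrl) 8.97-fold lower, and Gcg, the precursor of GLP-1, 4.06-fold lower (2.95 against 12). Cck was at 319.8 against 764 and Pyy at 11.3 against 23.2. Secretin (Sct) stayed within 2-fold, at 511 against 902, and was the most abundant hormone mRNA of the Gip-high cells after Gip.

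The other genes of lowest ratio were Tpbg, the tachykinin precursor Tac1, Cartpt, Afp, Ceacam10, Gsdma and Tubb2b, which were 4.96-fold to 6.71-fold lower. Tpbg, Tac1, Cartpt and Afp were abundant in the other comparison cells, where serotonin genes were high. Set against the 961 Cck-high cells alone, the ratios were 1.11 for Tpbg, 1.58 for Tac1, 1.16 for Cartpt and 1.19 for Afp.

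**Figure D3:**
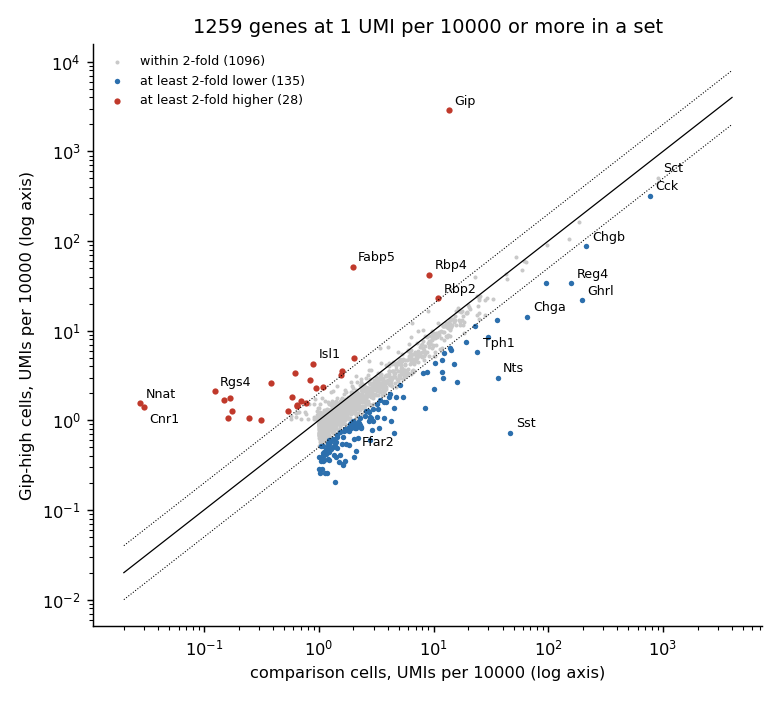
Each point is 1 of the 1259 compared genes, by its level in comparison cells (x axis) and Gip-high cells (y axis), in UMIs per 10000 on log axes. The solid line marks equal levels and the dotted lines a 2-fold difference. Gip, Fabp5, Rbp4, Nnat and Cnr1 lie far above the line and Sst, Nts and Ghrl far below it.

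Of 3 compared genes of serotonin, 2 were at least 2-fold lower than in the comparison cells taken as a whole. Tph1, the enzyme that commits tryptophan to serotonin in enterochromaffin cells, was at 5.78 (5.32 to 6.27) against 24.0, and the transporter Slc18a1 was at 0.640 against 2.19, while the decarboxylase Ddc was at 3.61 against 2.72. All 7 of the enterochromaffin markers that could be compared were at least 2-fold lower, against 10.7% of all compared genes. The 8 listed markers summed to 58.7 per 10000 in the Gip-high cells and 274 in the comparison cells. This comparison mixed unlike cells, since Tph1 was highest in the other comparison cells. Against the Cck-high cells alone, Tac1 and Afp were not lower and Chga was alike.

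Among 17 genes of granules and peptide processing, 13 could be compared and 3 were at least 2-fold lower, with none higher and a median ratio of 0.951. The shares over all compared genes were 10.7% lower and 2.22% higher. With the UMIs of Gip left out, 1 was lower (Chga) and 4 were higher (Cpe, Pam, Dpp4 and Cplx2), so the balance depended on the scale. Chromogranin A (Chga) was at 14.3 against 65.9 and chromogranin B (Chgb) at 87.3 against 215, and Chgb was part of the rule for the comparison cells. Against the Cck-high cells, where Chga was 13.7 and Chgb 94.0, the Gip-high cells were alike. Carboxypeptidase E (Cpe), which trims cut hormones, was at 16.6 against 8.93. Pcsk1, the protease of GIP, was at 2.08 (1.81 to 2.38) against 3.72 and had a UMI in 68.2% of the Gip-high cells.

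Retinoid and fatty acid handling had 3 of 10 compared genes higher and 2 lower, against 2.22% and 10.7% of all compared genes. The median ratio was 0.649, and 3 were higher and 1 lower with the UMIs of Gip left out. Besides Fabp5 and Rbp4, the cellular retinol carrier Rbp2 was higher, at 22.9 (22.0 to 23.8) against 11.0, and against 4.66 in the Cck-high cells. Among the lower genes, Apob, the protein of chylomicrons, was at 0.689 against 1.45. Rbp2 and Apob are also abundant in enterocytes, and the 8 enterocyte markers summed to 23.3 in the Gip-high cells and 34.8 in the comparison cells.

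Receptors were sparse. Of 27 nutrient receptors and transporters, 4 could be compared, and Ffar2, a receptor of short-chain fatty acids, was at least 2-fold lower, at 0.453 against 2.12. Of all compared genes, 10.7% were lower. Ffar2 was still lower with the UMIs of Gip left out, and Slc5a1 and the amino acid transporter Slc6a19 were over 2-fold higher (ratios of 2.16 and 2.44). The long-chain fatty acid receptor Ffar4 was at 1.18 (0.980 to 1.41) against 0.991 and the glucose transporter Slc5a1 at 1.19 (0.989 to 1.42) against 0.775. Under the level limit, Ffar1 was at 0.660 against 0.634, with 1.38 in the Cck-high cells. Gpr119, a receptor of lipid amides, was at 0.207 (0.128 to 0.316) against 0.0603, and the potassium channel subunit Abcc8 at 0.995 (0.810 to 1.21) against 0.303. 10 of the 27 had no UMI in any Gip-high cell.

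Of 28 receptors for hormones and transmitters, 14 had no UMI in the Gip-high cells, which at 3 counts in 1015545 UMIs allows up to about 0.0295 per 10000 for each, and Cnr1 was the 1 gene above the level limit. Among those under the limit, the prostaglandin receptor Ptger3 was at 0.286 (0.191 to 0.410) against 0.0269, a gene named here after its values were seen. The receptor of GIP itself, Gipr, had 2 UMIs. Of 30 genes of ion channels and exocytosis, 6 could be compared, and Scn3a, Trpa1, Snap25 and Syt7 were at least 2-fold lower, whereas none was higher. Among all compared genes, 10.7% were lower and 2.22% higher. Trpa1 alone stayed past 2-fold lower with the UMIs of Gip left out. Trpc5, a cation channel under the limit and also named after its values were seen, was at 0.414 (0.298 to 0.559) against 0.0479.

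Genes of other epithelial cells were checked as markers of mixed droplets. The 8 goblet markers summed to 276 per 10000 in the Gip-high cells, 361 in the comparison cells, and 235 if free RNA alone were present. The free RNA value was itself scaled to goblet genes of the same cells, and the cell rule limited those genes. The goblet sums therefore cannot show whether droplets were mixed. The 6 Paneth markers summed to 87.7 and 69.7, with 38.0 from free RNA, and 62.2% of the Defa24 UMIs among them came from the 1 cell already described. Tuft markers summed to 0.532 and 0.841, markers of cycling crypt cells to 0.551 and 0.732, and immune markers to 1.86 and 1.49. The part of these genes in the ratios was not tested.

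The Gip-high cells were not uniform in their other hormones. Cck reached 500 or more in 33 of 154 (21.4%, 15.2 to 28.8%), where free RNA would have given about 11.6, and 1000 or more in 17 (11.0%). Sct reached 500 or more in 62 (40.3%), Tph1 reached 20 or more in 18 (11.7%), and both high Cck and high Tph1 were found in 1 cell. 86 cells (55.8%) had Cck under 100 and Tph1 under 20. Pyy reached 20 in 23 cells, Gcg in 6 and Nts in 2.

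The 33 cells with high Cck differed from the 86 with neither. They held less Gip (1524 against 3542) and more Sct (1146 against 256) and Ghrl (55.8 against 10.1). Rbp4 was higher in them (56.0, 52.8 to 59.2, against 39.5, 37.9 to 41.1), while Fabp5 (32.9 against 57.3), Rbp2 (9.22 against 27.3), and Pkib (0.946 against 3.07) were lower. Fabp5, Rbp2 and Pkib did not fall steadily with Cck. In the 19 cells with Cck of 100 to 500, Fabp5 was at 77.8 (73.2 to 82.7), Rbp2 at 29.9 and Pkib at 3.46. With the UMIs of Gip left out of the scale, Rbp4 was at 66.0 in the cells with high Cck and 61.2 in those with neither, whose intervals were not computed on that scale. Cnr1, at 1.23 (0.803 to 1.80) and 1.57 (1.26 to 1.92), had overlapping intervals. With the UMIs of Gip left out it was at 1.45 and 2.43, again without intervals, and it had a UMI in 45.5% and 64.0% of the cells.

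The 18 cells with high Tph1 held Gip at 1265, Chga at 75.9 against 8.93 in the cells with neither, and Reg4, an enterochromaffin gene, at 169 against 16.4. Fabp5 was at 14.3 (12 to 17.0), Rbp4 at 18.1 and Isl1 at 1.44, all lower than in the cells with neither. Cnr1 had 0.222 (0.0269 to 0.802) there. Their median depth was 4861 UMIs, against 6445 in the cells with neither.

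As droplets can hold more than 1 cell, a doublet score was computed from simulated pairs of cells. The highest scores, 715 of all 9451 cells (7.57%), fell on 7 Gip-high cells (4.55%) and on 4.02% of comparison cells. They fell on 2 of 33 cells with high Cck (6.06%, 0.743 to 20.2%), 2 of 18 with high Tph1 (11.1%, 1.38 to 34.7%) and 3 of 86 with neither (3.49%, 0.725 to 9.86%). By Gip level, they fell on 3 of the 28 cells with Gip under 1000 (10.7%, 2.27 to 28.2%). These intervals overlap widely, so a difference was not detectable with so few cells.

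Other genes varied with the amount of Gip. The cells with high Cck and those with high Tph1 held less Gip (1524 and 1265) than the cells with neither (3542). Groups of cells by Gip, here and above and below its median, thus also differed in their share of such cells. The part of this makeup in the differences was not tested. From the 28 cells at 500 to 1000 through 1000 to 2000, 2000 to 3000 and 3000 to 4000 to the 50 cells at 4000 to 7000, Fabp5 was at 17.5, 29.0, 71.7, 71.6 and 67.9 UMIs per 10000. Rbp4 was at 15.7, 42.0, 45.6, 54.3 and 50.6 in the same order. Both were lowest where Gip was lowest. Above Gip 2000 they differed little on this scale, but with the UMIs of Gip left out they went on from 96.2 through 110.0 to 132 for Fabp5 and from 61.2 through 83.4 to 98.4 for Rbp4. Isl1 went from 1.92 (1.37 to 2.63) in the lowest group to 5.84 (5.05 to 6.73) in the highest, and Cnr1 from 0.345 (0.139 to 0.711) to 1.94 (1.49 to 2.47).

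Cck, Sct, Ghrl and Tph1 were lowest where Gip was highest, but Pyy was not. From the lowest to the highest group, Pyy was at 18.8, 7.81, 4.94, 8.80 and 12.4. With the UMIs of Gip left out, Pyy was at 20.2 in the lowest and 24.2 in the highest group. Cck was at 523, 726, 329, 156 and 42.7 over the same groups, and Tph1 at 14.2, 6.58, 5.09, 5.07 and 0.757. Sct was at 690.5 in the lowest group, 917 in the middle group and 208 in the highest. A larger share of Gip leaves fewer UMIs for every other gene, yet with the UMIs of Gip left out Cck still went from 563 in the lowest to 83.1 in the highest group, and Fabp5 from 18.8 to 132. All 3 of Fabp5, Rbp4 and Cnr1 had a UMI in 6 of the 28 cells under Gip 1000 (21.4%) and in 76 of the other 126 (60.3%).

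**Figure D4:**
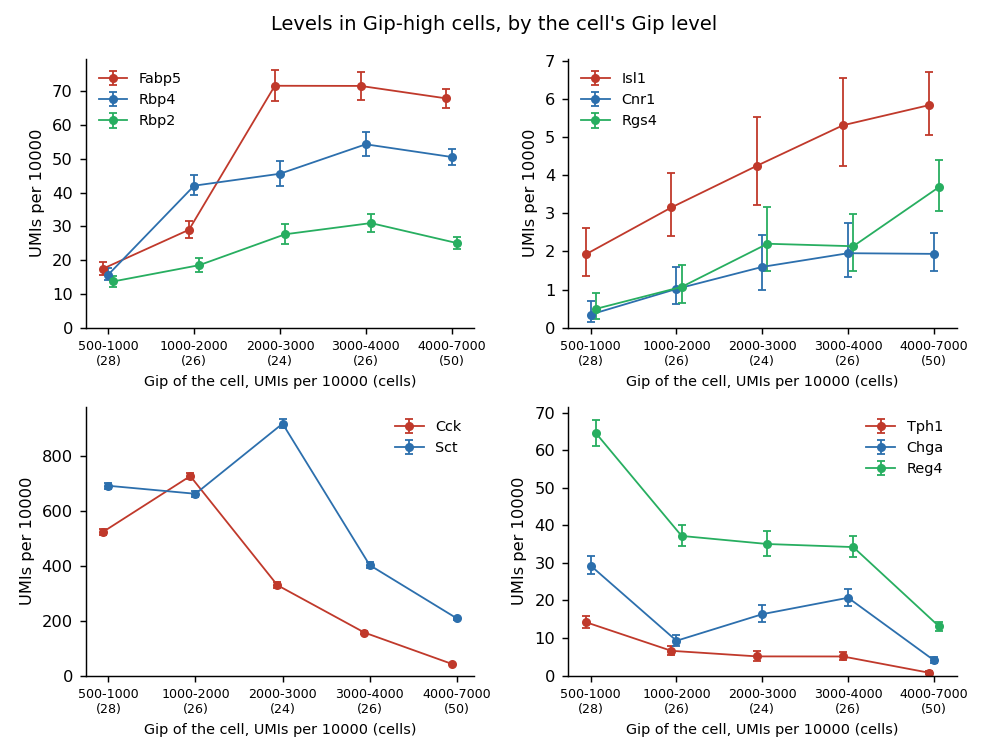
Levels in UMIs per 10000 (y axes, linear from 0) in 5 groups of Gip-high cells ordered by the Gip level of the cell (x axes, number of cells in brackets), with Poisson 95% intervals. Fabp5 goes from 17.5 to 67.9, Isl1 from 1.92 to 5.84, and Cck from 523 to 42.7 between the lowest and the highest group, while Sct is highest, at 917, in the middle group. The groups also differ in their share of cells with high Cck or high Tph1.

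Compared between the 77 cells above and the 77 cells below the median of Gip, the genes with the largest gain were Fabp5 (68.5 against 35.5), Rbp4 (51.4 against 32.9), Rbp2 (26.8 against 19.1), Cpe (19.3 against 13.9) and Cdkn1a (12.1 against 7.90). The genes with the largest loss were Cck (79.6 against 552), Sct (271 against 743), Defa24, Chgb (63.9 against 109.9) and Lgals2 (18.2 against 49.9). With the UMIs of Gip left out, Chgb was at 114 against 128, while Cck was at 142 against 643 and Sct at 484 against 865. Defa24, at 25.8 against 105.7, rested mainly on the 1 cell already described. Compared by Cck instead, the 77 cells of higher Cck had more Sct (788 against 241) and Ghrl (35.8 against 8.38) and less Gip (2509 against 3233).

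In bulk, which the rule did not use, Gip was at 34279, 10775 and 18225 normalized counts in the 3 fasted CCK+ libraries and at 20310, 29342 and 18175 in the 3 refed ones. In the CCK- libraries it was at 39.9, 40 and 78.0 when fasted and at 33.3, 33.3 and 49.1 when refed. The 6 CCK+ libraries were thus all far above the 6 CCK- libraries. On log2(normalized count + 1), the difference was 8.84 ± 0.25 (SE, n = 6 against 6; limma, Benjamini-Hochberg adjusted p = 2.95e-11). In bulk samples, more cells of a type and more RNA per cell cannot be told apart.

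14 of the 19 leading genes found in the bulk table (73.7%) were higher in CCK+ cells at a limma adjusted p under 0.05, against 19.6% of all 22042 genes, and 2 were lower, against 14.1% of all genes. 13 of the 14 had no overlap between the 6 CCK+ and the 6 CCK- libraries, as had 49.5% of the 4324 genes called higher and 9.71% of all genes. All 10 genes of lowest ratio were higher in CCK+ cells as well, so a higher level in CCK+ cells was not particular to the leading genes. Meg3 was not found in the table. Markers of other cells moved with the sort. Of 6 immune markers, 5 were higher in CCK+ cells (median log2 3.38), among them the T cell gene Cd3e, and their sum ran from 6045 to 10593 normalized counts in CCK+ and from 2823 to 9338 in CCK- libraries. Of 8 enterocyte markers, 6 were lower (median log2 -1.13), with sums of 124081 to 324828 in CCK+ and 326427 to 488827 in CCK- libraries, and none of either list was at 0 throughout the CCK+ libraries. Their part in the rises of the leading genes was not tested.

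Fabp5 was at 1025, 391.8 and 675 normalized counts in fasted and 953, 1125 and 789 in refed CCK+ cells, and between 2.56 and 16.4 in CCK- cells. The difference was 6.98 ± 0.28 (SE, log2; limma, Benjamini-Hochberg adjusted p = 3.12e-10). Rbp4 was at 698, 248 and 571 in fasted and 548, 504 and 368 in refed CCK+ cells, and at 0 to 3.87 in CCK- cells (7.54 ± 0.45, limma adjusted p = 2.16e-08). Cnr1 was at 325, 91.4 and 170.5 in fasted and 223, 191 and 176 in refed CCK+ cells. It was listed at 0 in 5 of 6 CCK- libraries and at 2.03 in the other (7.26 ± 0.41 with 1 count added, limma adjusted p = 1e-08). None of these 3 markers overlapped between the sorted populations.

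Isl1 (6.59 ± 0.52), Rfx6 (6.56 ± 0.29) and Pax6 (4.07 ± 0.22) were also higher in CCK+ cells, as were Sphkap (8.01), Scgn (6.10), Fxyd6 (5.93), Rgs4 (5.33), Cd44 (3.07), which immune cells also carry, and Pkib (2.04), with limma adjusted p of at most 1.82e-05 for each. Hjurp, matched by its Ensembl identifier and listed in bulk under another symbol, was higher by 0.36 (limma adjusted p = 0.0419), with overlapping libraries, and its call was lost when any of 9 libraries was left out (limma adjusted p from 0.0231 to 0.108). Fam213a, listed under its newer symbol Prxl2a, fell by 1.30 and Gsto1 by 0.93 in CCK+ cells, opposite to their ratios among EECs in the droplet data. Nnat (0.36, limma adjusted p = 0.181), Phlda1 (0.19, limma adjusted p = 0.754) and Defa21 (0.42, limma adjusted p = 0.755) did not pass.

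Some genes too rare to compare in the droplet library were measurable in the CCK+ bulk libraries, which do not hold Gip-high cells alone. Gpr119 was at 40.8 to 73.9 normalized counts in CCK+ cells and at 0 to 1.11 in CCK- cells (5.59 ± 0.37, limma adjusted p = 6.17e-08). Abcc8 (5.67, limma adjusted p = 1.1e-06), Ptger3 (4.78, limma adjusted p = 1.78e-07) and Trpc5 (5.2, limma adjusted p = 6.74e-08) were also higher in CCK+ cells. Of the 27 nutrient receptors and transporters, 12 were called higher and 6 lower. Of 23 receptors for hormones and transmitters found, 15 were called higher and 0 lower. Of 30 genes of ion channels and exocytosis, 26 were called higher and 0 lower. Over all genes, 19.6% were called higher and 14.1% lower. Rbp2, which was higher in Gip-high cells than in other EECs, was lower in CCK+ than in CCK- cells (log2 -0.66, limma adjusted p = 0.00903).

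**Figure D5:**
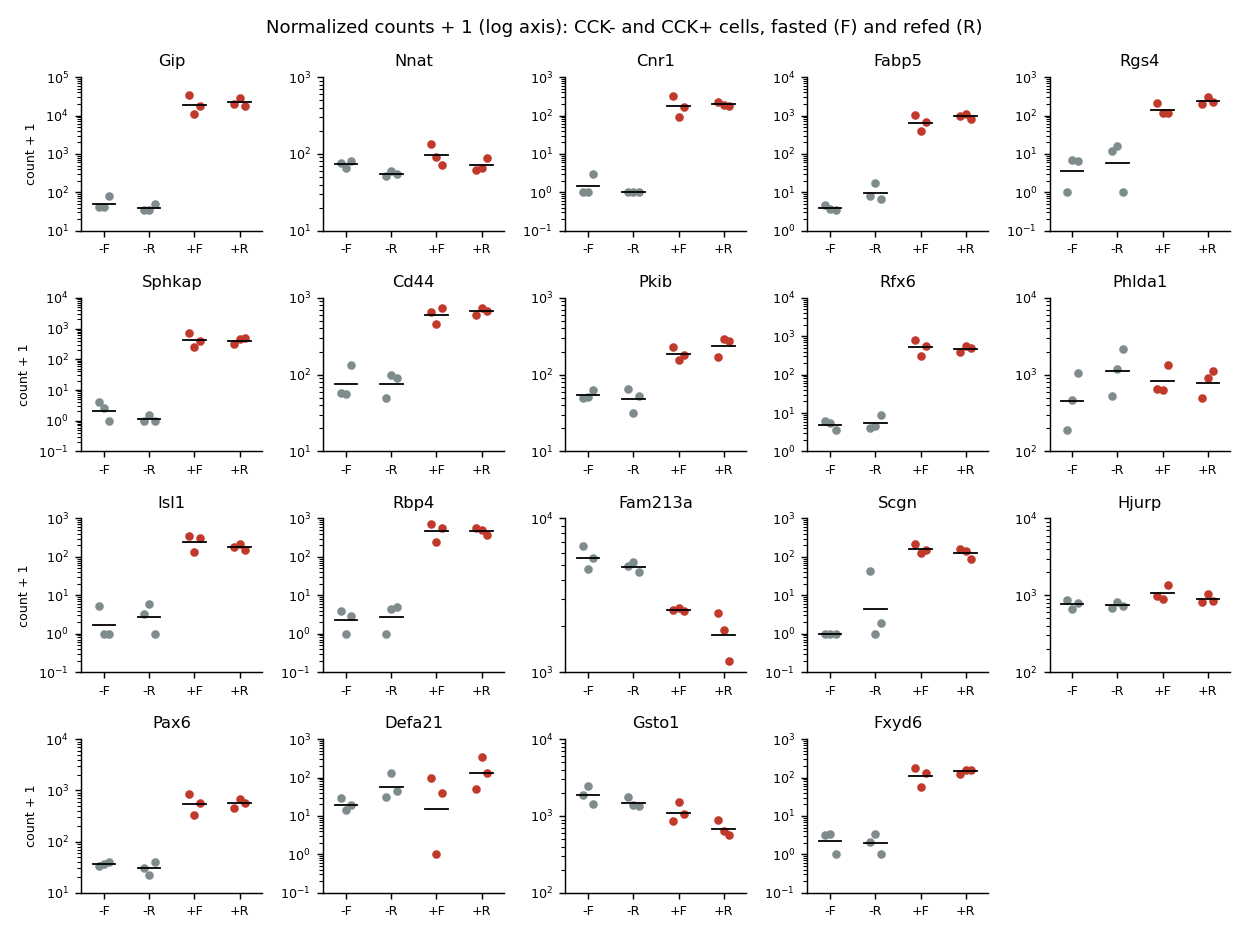
Each panel is 1 leading gene, with normalized count + 1 on a log axis (y) for CCK- and CCK+ cells of fasted (F) and refed (R) mice (x). Each point is 1 library, and the line is the mean on the log scale. Gip, Fabp5, Rbp4 and Cnr1 lie in all 6 CCK+ libraries above all 6 CCK- libraries, and Fam213a lies lower in CCK+ cells.

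Refeeding after the fast asks whether the hormone and the genes that go with it respond to a meal. Gip had a mean of 21093 ± 12012 normalized counts (SD, n = 3) in fasted and 22609 ± 5928 in refed CCK+ cells. The difference was 0.23 ± 0.36 on the log2 scale (95% interval -0.54 to 1.00; limma, Benjamini-Hochberg adjusted p = 0.804), and the interval ran up to a 2-fold rise. Without the second fasted CCK+ library, which had the lowest Gip, it was -0.18.

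None of the 19 leading genes passed limma's test between refed and fasted CCK+ cells, against 1.31% of all genes called higher and 1.23% called lower, and 3 of the 19 had an unadjusted p under 0.05, against 16.9% of all genes. Their log2 differences had a median of 0.01 and ran from -0.69 to 3.09, the last for Defa21, and the lowest adjusted p was 0.154. For Fabp5 the difference was 0.55 (95% interval -0.29 to 1.38), for Rbp4 0.01 (-1.36 to 1.39) and for Cnr1 0.19 (-1.04 to 1.42). By the interaction term, 1 of all 22042 genes (0.00454%) and no leading gene passed for a different response in CCK+ and CCK- cells (lowest limma adjusted p of a leading gene = 0.795).

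The leading genes varied together between CCK+ libraries of the same group. Among the 14 called higher, the second fasted library was the lowest of the 6 for 12 (85.7%), and the first fasted library the highest for 9 (64.3%). Over all 4324 genes called higher in CCK+ cells, the same libraries were lowest for 44.3% and highest for 17.8%. The normalized counts of the CCK+ libraries summed to between 7061155 and 9868241 and those of the CCK- libraries to between 9900561 and 11371114, and the second fasted CCK+ library had the highest sum of enterocyte markers of the 6. The part of either in this order was not tested.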

How the data were processed

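For the droplet library, the authors aligned reads to mm10 with Cell Ranger 2.0.1, and the deposited values are UMI counts per gene and barcode, without normalization and before cell calling. For bulk, the authors trimmed reads with Trim Galore 0.6.7, quantified transcripts with Salmon 1.6.0 (GRCm39), and deposited a signal of gene counts divided by DESeq2 normalization factors, so read depth is unknown and no count test was used. Levels are UMIs summed over the cells of a set per 10000, with Poisson intervals for levels, exact conditional intervals for ratios and Clopper-Pearson intervals for shares, all at 95%. Free RNA was profiled from barcodes with 1 to 100 UMIs and scaled per cell by the 4 goblet genes. Cells were thinned to 2000 UMIs, which left out 0 Gip-high and 57 comparison cells. No doublets were removed. Leading genes were the 20 of highest ratio and the lowest were the 10 of lowest ratio past 2-fold, without mitochondrial, ribosomal protein and predicted genes. Up to 6 members of each gene list were named by level or ratio, and genes that followed Gip by the difference between the cells above and below its median. The cells and lists were chosen with earlier results of these data known.

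Bulk values were tested with limma 3.58.1 (R 4.3.3) on log2(normalized count + 1) over all 22042 genes with 1 mean per group, a mean-variance trend and Benjamini-Hochberg adjustment, two-sided, after a test on simulated data. CCK+ and CCK- libraries of the same mouse share a letter in the table. Their deviations from group means correlated at 0.0463 to 0.0650 over genes, and those of different mice at -0.0455 to -0.00973. Other steps used scikit-learn 1.9.0, scipy 1.17.1 and numpy 2.4.6 under Python 3.11.15. Alternatives covered the limits on cells, the Gip limit, doublets, free RNA, the comparison set, thinning, the pseudocount, filters, scaling, the mouse as a block and leaving out each library. 1 label was at odds, since all bulk titles name CCK+ cells, and the cell-type labels were followed. The authors' cell clusters were not used here. 1 listed gene is not reported here.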

Additional observations from a re-analysis of the deposited data

How the results depend on the processing

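The 9451 cells came from 1 library, so spread between animals could not be measured, and genes under about 1 UMI per 10000 were limited by depth. The number of Gip-high cells ran from 104 to 228 over the alternatives. The number of genes at least 2-fold lower than in comparison cells was 85 with over 1500 genes per cell, 79 over the UMI limit of Cell Ranger, 72 and (for higher genes) 47 against cells with Cck of 500 or more, 204 after thinning, and 51 and (higher) 87 with the UMIs of Gip left out, the last chosen after seeing the data. A Cck limit of 1000 gave a share of 11.0%. At least 18 of the 20 leading genes stayed at least 2-fold higher under each alternative on cells. Defa21 reversed at a Gip limit of 1000 (log2 -0.74) and without the cell of highest Defa24 (-0.88, chosen after seeing the data). Tpbg, Tac1, Cartpt and Afp reversed against cells with Cck of 500 or more (0.17, 0.68, 0.20 and 0.27). In bulk, Gip in refed against fasted CCK+ cells ran from -0.18 to 0.66 when 1 library was left out, and reversed to -0.18 (limma adjusted p = 0.873) without the second fasted CCK+ library. Gip in CCK+ against CCK- ran from 8.63 to 9.04 with 1 library left out, and 13 to 14 leading genes were called higher. With the mouse as a replicate block, these were 8.84 (limma adjusted p = 9.1e-09) and 14, and the block changed no other call. Defa21 reversed without the first fasted CCK+ library (-0.23) and in fasted mice alone (-0.36), with a range of -0.23 to 1.41 over left-out libraries, and Phlda1, with a range of -0.12 to 0.49, without the first fasted (-0.12) or first refed (-0.07) CCK- library and in refed mice alone (-0.49). Nnat passed (limma adjusted p = 0.0163) when libraries were rescaled to the same sum. Apart from the different comparison sets, the cause of these shifts was not tested.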
